A study of Mus musculus with 4 samples.

Results

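The purinergic and adenosine pathway was examined in CD8+ T cells through 10 of the 55401 genes in the tables: Entpd1, Nt5e, Entpd4, Entpd4b, Ada, Dpp4, Adora2a, P2rx4, P2rx7 and Cd38. They were picked by symbol, with earlier results of the same libraries known, so their values are given as a description and no test is made on them. Their mean levels over the libraries all reached 1 CPM (counts-per-million of reads, after TMM scaling for library composition), which 12231 genes did. In the older build GRCm38, every annotated transcript of Entpd4 and Entpd4b is identical to, or contained in, a transcript of the other gene. The 10 rows are therefore treated as 9 measurable units. In the older build GRCm38, Nt5e lies on chromosome 9, Adora2a on chromosome 10, Ada and Dpp4 on chromosome 2, and P2rx4, P2rx7 and Cd38 on chromosome 5.

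The cells were sorted from mouse lung as CD3+CD8+ cells, and RNA was amplified with a low-input kit before sequencing. All mice were C57BL/6J. The groups were IPF-LC mice given an anti CD4-depleting antibody, IPF-LC mice given isotype antibody, LC mice given the depleting antibody and LC mice given isotype antibody, and the labels spell out neither model name. Each group had 1 library, and the ages, doses, times and number of mice per library are not stated. No value therefore has a replicate error, and the 95% intervals below cover counting error only: the labels describe no molecular identifiers, and differences between animals are not included.

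Extracellular ATP and adenosine act on T cells in opposite ways. ATP released by activated or damaged cells opens P2X channels and activates P2Y receptors. On the cell surface CD39, encoded by Entpd1, degrades ATP and ADP to AMP, and CD73, encoded by Nt5e, converts AMP to adenosine, which acts on the receptor encoded by Adora2a to raise cAMP and restrain activation. Adenosine deaminase, encoded by Ada, removes adenosine, and CD38 degrades NAD, another extracellular nucleotide.

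Library totals lay between 14946569 and 16217672 reads, so 1 read was worth between 0.0638 and 0.0647 CPM. All 17 CD8 T cell identity genes were detected in every library, with a summed level of 8721 to 10410 CPM. Transcripts of other cell types were present too. For 22 markers of macrophages and monocytes the sum was 1247 CPM after depletion and 3423 CPM with isotype antibody in IPF-LC, and 373 CPM after depletion and 5017 CPM with isotype antibody in LC. The 12 regulatory T cell markers, several of which activated CD8+ cells also express, summed to 829 CPM after depletion and 347 CPM with isotype antibody in IPF-LC, and to 798 CPM after depletion and 627 CPM with isotype antibody in LC. In these bulk samples, fewer cells of a type and less RNA per cell cannot be told apart.

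Entpd4 and Entpd4b encode an intracellular nucleotidase of the Golgi and lysosomal membranes. They lie on the plus strand of chromosome 14, at chr14:69337174-69367270 and chr14:69555424-69585520 in the older mouse build GRCm38 (GENCODE M21), which is not the GRCm39 build named for the deposited tables. The first 120 coding bases of the longest transcript of each gene are shown because the Entpd4b value rests on telling such sequences apart. The start codon is in capitals.
Entpd4: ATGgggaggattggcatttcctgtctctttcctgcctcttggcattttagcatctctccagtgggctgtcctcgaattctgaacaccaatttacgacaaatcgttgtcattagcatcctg
Entpd4b: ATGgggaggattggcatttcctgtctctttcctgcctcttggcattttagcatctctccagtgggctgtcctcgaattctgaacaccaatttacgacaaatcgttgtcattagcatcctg
Over their whole 3589 bases these transcripts differed at 0 positions. Cutting all annotated transcripts of each gene into windows of 100 bases gave 8304 distinct windows per gene, of which 8304 were shared and 0 belonged to 1 gene only. The counts were the same with windows of 150 bases. In that annotation, a read of such a length from a transcript of one gene also matches the other.

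The deposited tables nevertheless divide the reads between both genes, and the division differed between libraries. Entpd4b and Entpd4 were each assigned 706.34 reads in the CD4-depleted IPF-LC library, an equal split. In the isotype IPF-LC library Entpd4b received 37.94 of 957.91 reads, or 3.96%. In the CD4-depleted LC library it received 97.51 of 1253.96 reads, or 7.78%. In the isotype LC library it received 584.86 of 1170.1 reads, again close to an equal split at 49.98%. The mean transcript length deposited for Entpd4b was 1365.86 bases in the CD4-depleted LC library and lay between 2917.07 and 2967.15 bases in the other libraries.

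Taken alone, the Entpd4b row gave a log2 ratio of CD4-depleted over isotype of 4.20 in IPF-LC and -2.59 in LC, while the Entpd4 row gave -0.38 and 0.96, opposite in sign in each model. With the reads of both genes summed, the level was 90.7 CPM after depletion and 61.3 CPM with isotype antibody in IPF-LC, and 80.0 CPM after depletion and 75.7 CPM with isotype antibody in LC. The summed log2 ratio was 0.56 (95% counting interval 0.45 to 0.68) in IPF-LC and 0.08 (-0.04 to 0.20) in LC. The sum differed by less than 2-fold between any of the 4 libraries, and it is used for this pair from here on.

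**Figure D1:**
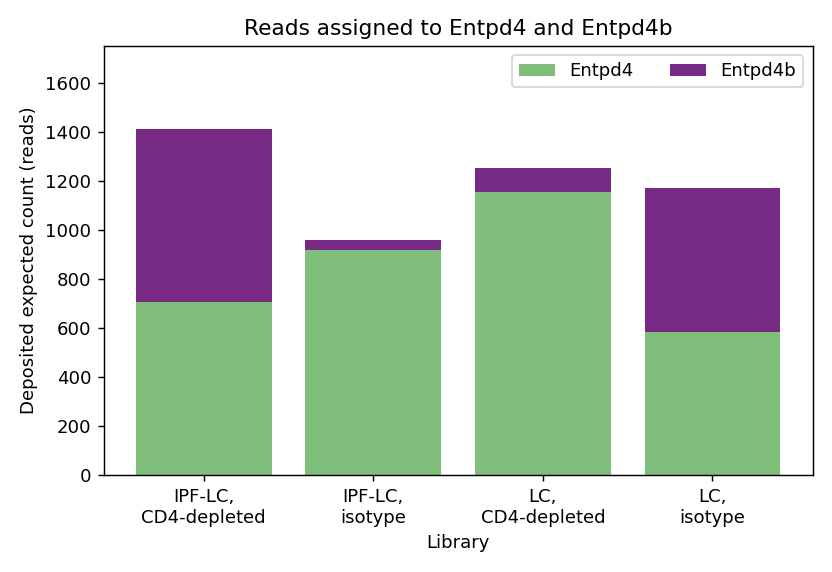
Deposited expected count of reads (vertical axis) assigned to Entpd4 (green) and Entpd4b (purple) in each of the 4 libraries, stacked. The total varies between 957.91 and 1412.68 reads, while the share given to Entpd4b varies between 3.96% and 50%.

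Entpd1 had the widest range among the 9 units. It was measured at 314 counts (20.1 CPM) in the CD4-depleted and 106 counts (6.78 CPM) in the isotype library of IPF-LC, against 159 counts (10.1 CPM) in the CD4-depleted and 735 counts (47.6 CPM) in the isotype LC library. After depletion it was thus 2.96-fold higher in IPF-LC, a log2 ratio of 1.57 (1.249 to 1.90), and in LC it was lower, with a log2 ratio of -2.23 (-2.49 to -1.98). The difference between the depletion ratios, IPF-LC minus LC, was 3.79 on the log2 scale (3.39 to 4.19), and Entpd1 was 4.68-fold lower after depletion in LC. The isotype libraries were the extremes: IPF-LC lay below LC by a log2 ratio of -2.80 (-3.12 to -2.51).

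Markers of other cells moved with Entpd1 in part. CD39 is also carried by macrophages, endothelial cells and regulatory T cells. In LC, Entpd1 and the macrophage markers were both lower in the depleted library, with 9 of the 22 markers at 0 counts there, Adgre1 among them. In IPF-LC Entpd1 was higher in the depleted library while the macrophage sum was lower. The 12 endothelial markers summed to 158 CPM after depletion and 318 CPM with isotype antibody in IPF-LC, and to 141 and 414 CPM in LC. The regulatory T cell sum was higher after depletion in each model. Of those 12 markers, 8 were at least 2-fold higher and 0 lower in IPF-LC, where 8.84% and 13.6% of all genes were. In LC 2 were at least 2-fold higher and 2 lower, where 5.85% and 15.4% of all genes were. Foxp3, the defining transcription factor of regulatory T cells, was measured at 29.3 CPM after depletion against 1.47 CPM with isotype antibody in IPF-LC. In LC it was measured at 32.5 against 3.88 CPM. The part of these cells in the Entpd1 values was not tested.

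**Figure D2:**
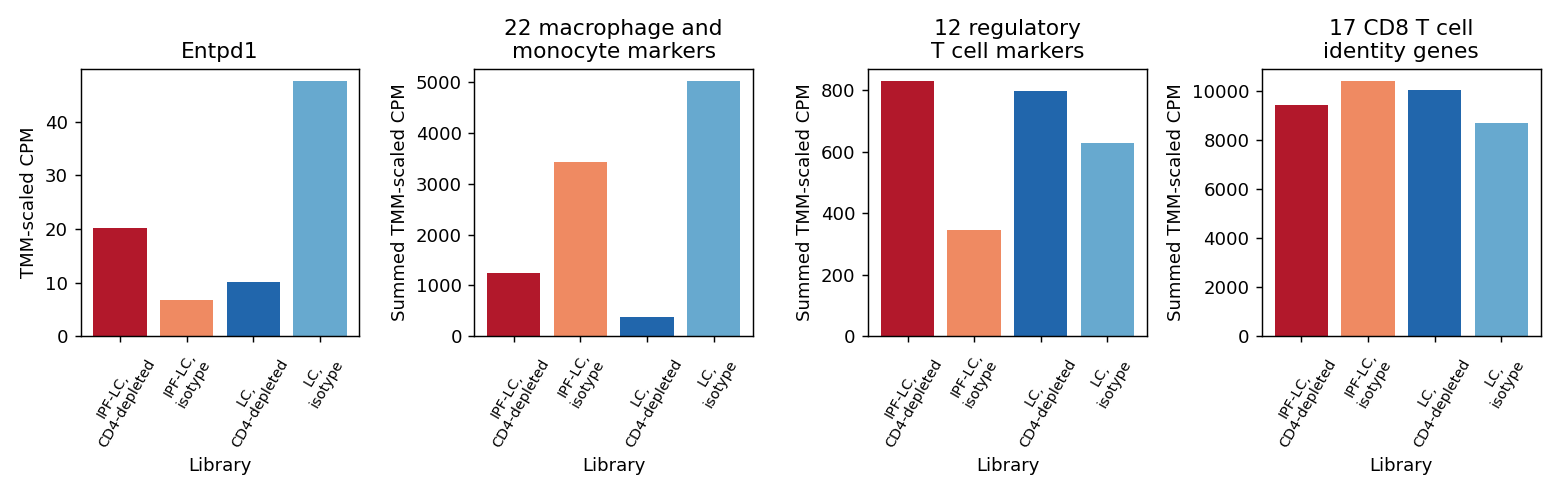
Level of Entpd1 and summed level of 3 marker lists (TMM-scaled CPM, linear axes from 0) in each library. Entpd1 is highest in the isotype LC library, where the macrophage and monocyte markers are also highest at 5017 CPM, but in IPF-LC Entpd1 is higher and those markers lower after depletion.

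The deposited tables also hold a mean transcript length for Entpd1 that differed between libraries. Entpd1 lies on chromosome 19, with 11 transcripts in the same GENCODE annotation. Entpd1-204, of 2409 bases, starts near the upstream promoter, and Entpd1-201, of 4221 bases, starts at the downstream one and ends in a longer last exon. The mean transcript length deposited for Entpd1, which weights transcripts by their estimated abundance, was 3171.97 bases in the CD4-depleted and 3246.47 bases in the isotype IPF-LC library. It was 2408.83 bases in the CD4-depleted and 3422.67 bases in the isotype LC library. The CD4-depleted LC value is close to the length of Entpd1-204. Its ratio to the isotype LC value was 0.704, and 3.07% of 11385 genes with a length to compare had a ratio this low or lower. On the TPM scale, which divides by these lengths, the depletion ratio in LC was -1.73. The mean length cannot tell a different start from a different end, and it rests on 159 reads in that library.

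The sequences at the 2 annotated Entpd1 starts are shown because Entpd1-204 begins at or near the upstream one and Entpd1-201 at the downstream one. Each is a promoter window on the plus strand from RefSeq (GRCm38.p6), lying mostly before the annotated start. Capitals mark matches on either strand to CCAAT, the core bound by NF-Y, to TGACG, the core of the cAMP response element, and to GCGTG, the core bound by the aryl hydrocarbon receptor.
Upstream start, chr19:40612116-40612415: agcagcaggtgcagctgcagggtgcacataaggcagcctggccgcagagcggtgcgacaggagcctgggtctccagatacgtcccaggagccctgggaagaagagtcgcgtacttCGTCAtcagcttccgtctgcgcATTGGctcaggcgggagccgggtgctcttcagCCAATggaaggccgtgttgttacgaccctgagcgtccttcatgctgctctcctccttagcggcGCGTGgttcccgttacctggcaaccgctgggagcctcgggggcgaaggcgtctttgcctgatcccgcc
Downstream start, chr19:40659520-40659819: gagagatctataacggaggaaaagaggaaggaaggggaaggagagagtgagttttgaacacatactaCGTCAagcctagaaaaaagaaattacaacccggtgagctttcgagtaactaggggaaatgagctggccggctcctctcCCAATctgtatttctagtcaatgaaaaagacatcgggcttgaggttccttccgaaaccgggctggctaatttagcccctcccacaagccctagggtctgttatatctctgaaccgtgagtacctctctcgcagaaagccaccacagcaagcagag
The upstream window held 2 matches to CCAAT, 1 to TGACG and 1 to GCGTG. The downstream window held 1 match to CCAAT, 1 to TGACG and 0 to GCGTG. Such short motifs are common: among 32851 promoter windows of the same length, 37.4% held CCAAT, 20.8% TGACG and 32.4% GCGTG on either strand. A match describes the letters only and is not evidence of binding.

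Nt5e, the next enzyme of the surface cascade, did not share the Entpd1 pattern. It was measured at 214 CPM in the CD4-depleted and 154 CPM in the isotype library of IPF-LC, and at 192 CPM in the CD4-depleted and 137 CPM in the isotype LC library. Both depleted libraries lay above both isotype libraries. The depletion ratios were 0.48 (0.40 to 0.55) in IPF-LC and 0.49 (0.40 to 0.57) in LC, and their difference was -0.01 (-0.12 to 0.10). When scaled to the CD8 T cell identity genes instead, that difference was 0.34. Between 2115 and 3343 reads stood behind each value.

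Per length, Nt5e was the more abundant surface enzyme in every library. Its level in TPM (transcripts-per-million, which corrects for length) was 8.30-fold that of Entpd1 in the CD4-depleted and 18.1-fold in the isotype IPF-LC library. In LC it was 10.8-fold in the CD4-depleted and 2.44-fold in the isotype library. The gap between the enzymes was thus narrowest where Entpd1 was highest. Nt5e or Dpp4 had the highest TPM of the 9 units in each library and P2rx7 the lowest.

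**Figure D3:**
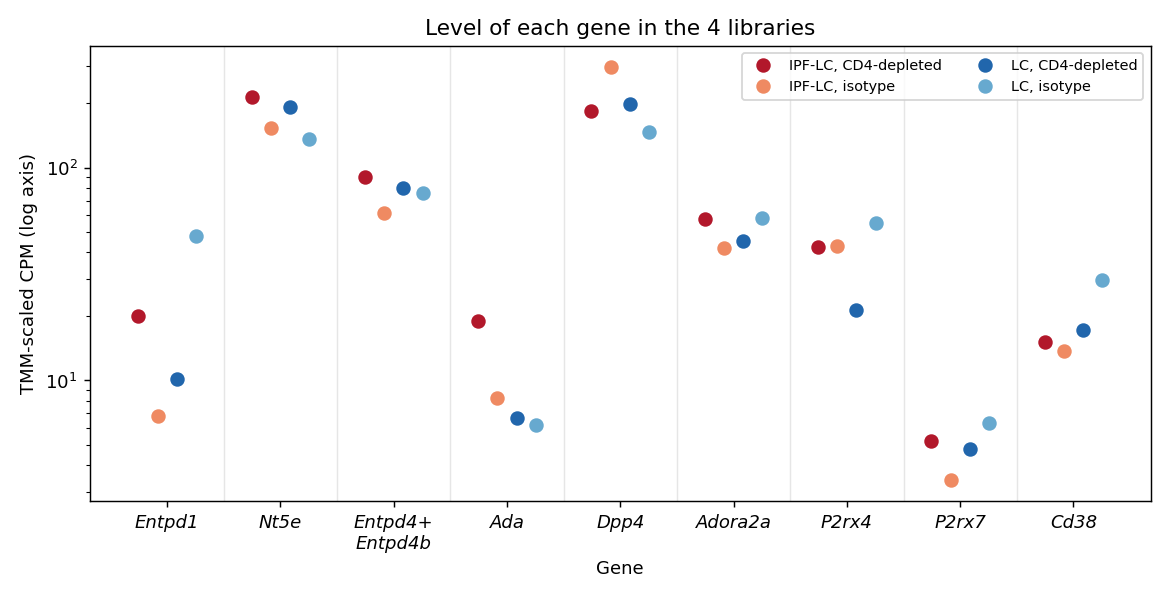
Level of each gene (TMM-scaled CPM, log axis) in the CD4-depleted and isotype libraries of IPF-LC (reds) and LC (blues), 1 point per library with no replicate. Nt5e has both depleted libraries above both isotype libraries, whereas Entpd1 runs between 6.78 and 47.6 CPM with the isotype libraries at the extremes.

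Of the enzymes that dispose of adenosine, Ada stood out in 1 library. It had 297 counts (19.1 CPM) in the CD4-depleted and 130 counts (8.32 CPM) in the isotype library of IPF-LC, against 104 counts (6.63 CPM) in the CD4-depleted and 96 counts (6.21 CPM) in the isotype LC library. The depletion ratio was 1.19 (0.89 to 1.505) in IPF-LC and 0.09 (-0.32 to 0.51) in LC, where no difference was detectable at this depth. After depletion Ada was 2.86-fold higher in IPF-LC than in LC (log2 ratio 1.52, 1.20 to 1.86). Its deposited length was 1688 bases in every library, so its TPM ratios involve no difference in length.

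Dpp4 encodes CD26, a surface peptidase that in humans anchors adenosine deaminase. It went the other way from Entpd1, with 184 CPM in the CD4-depleted and 298 CPM in the isotype library of IPF-LC, and 199 CPM in the CD4-depleted and 147 CPM in the isotype LC library. The depletion ratios were -0.70 (-0.76 to -0.63) and 0.44 (0.36 to 0.52). With isotype antibody Dpp4 was 2.03-fold higher in IPF-LC than in LC (log2 ratio 1.02, 0.95 to 1.09), and the ratio was under 2-fold with TPM (0.79) and when scaled to the CD8 T cell identity genes (0.77). After depletion the models were close, at a log2 ratio of -0.12 (-0.19 to -0.04).

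Adora2a, the receptor through which adenosine restrains T cells, varied little. It was measured at 57.04 CPM in the CD4-depleted and 41.8 CPM in the isotype library of IPF-LC, and at 45.0 CPM in the CD4-depleted and 57.7 CPM in the isotype LC library. The depletion ratios, 0.45 (0.30 to 0.60) in IPF-LC and -0.36 (-0.50 to -0.22) in LC, differed in sign but were each under 2-fold. It was nearly the sole adenosine receptor read: Adora1 and Adora3 had 0 counts in every library, where a count of 0 allows up to 3 reads. Adora2b had 14 and 17 counts in the CD4-depleted and isotype IPF-LC libraries and 0 and 35 in those of LC, at least 11.8-fold lower after depletion in LC by a floor of 3 counts per library.

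Of the ATP-gated channels, P2rx4 was the main one measured. P2rx4 stood at 42.4 CPM in the CD4-depleted and 42.9 CPM in the isotype library of IPF-LC, against 21.4 CPM in the CD4-depleted and 54.7 CPM in the isotype LC library. Its depletion ratio was -0.02 (-0.17 to 0.14) in IPF-LC and -1.36 (-1.54 to -1.17) in LC. The CD4-depleted LC library alone was low, and it is also the one with the lowest macrophage sum. In IPF-LC the macrophage sum was 1247 CPM after depletion and 3423 CPM with isotype antibody, while P2rx4 was nearly level. Macrophages express P2rx4, and their part in this value was not tested.

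P2rx7, the channel that high ATP opens to large pores and cell death in mouse T cells, was weakly read, at 81 and 53 counts in the CD4-depleted and isotype IPF-LC libraries and 75 and 98 counts in those of LC. The depletion ratios were 0.61 (0.10 to 1.14) and -0.40 (-0.86 to 0.04). P2rx4 exceeded it per length by between 6.56-fold and 26.3-fold. The other P2X genes, P2rx1, P2rx2, P2rx3, P2rx5 and P2rx6, had a mean under 1 CPM and no more than 13 counts in any library.

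Cd38 was highest with isotype antibody in LC. It was measured at 15.1 CPM in the CD4-depleted and 13.7 CPM in the isotype library of IPF-LC, and at 17.4 CPM in the CD4-depleted and 29.6 CPM in the isotype LC library. The depletion ratio was 0.14 (-0.13 to 0.42) in IPF-LC, where no difference was detectable at this depth, and -0.77 (-0.99 to -0.55) in LC. With isotype antibody IPF-LC was lower than LC by a log2 ratio of -1.11 (-1.35 to -0.87). B cells, plasma cells and macrophages also express Cd38; the 12 B cell and plasma cell markers summed to 319 and 506 CPM in the CD4-depleted and isotype IPF-LC libraries and to 356 and 416 CPM in those of LC, and their part was not tested.

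**Figure D4:**
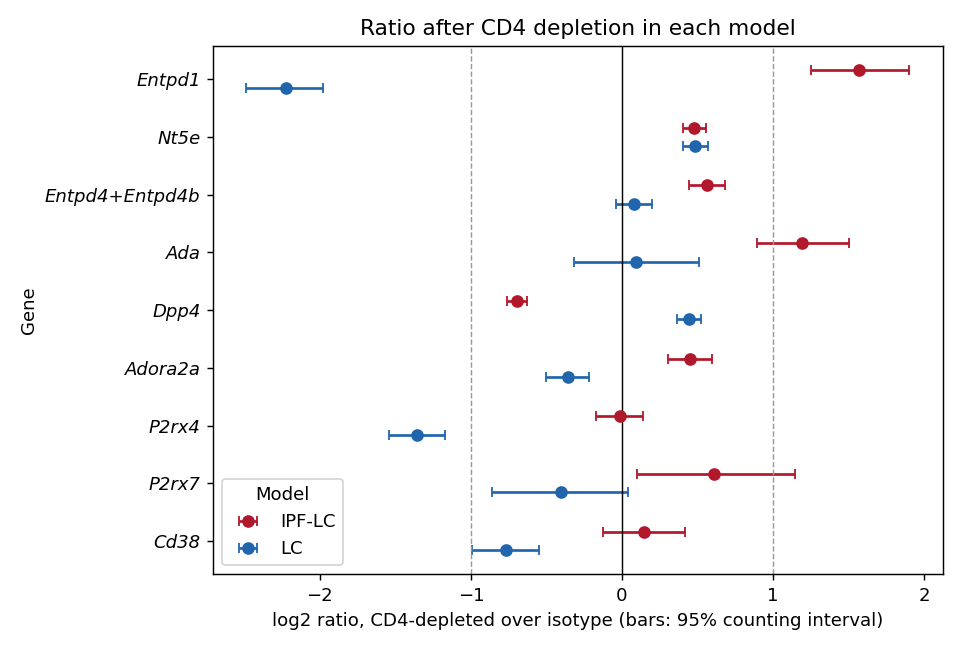
Log2 ratio of CD4-depleted over isotype library (horizontal axis) for each unit in IPF-LC (red) and LC (blue), with 95% counting intervals as bars and dashed lines at 2-fold. Entpd1 lies beyond 2-fold on opposite sides in the 2 models, Nt5e lies at 0.48 and 0.49, and P2rx4 is beyond 2-fold in LC.

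Counting the deposited rows, 3 of the 10 exceeded 2-fold upward after depletion in IPF-LC and 0 downward, where 8.84% and 13.6% of the 12231 genes did. In LC 0 exceeded it upward and 3 downward, where 5.85% and 15.4% of all genes did. The median log2 ratio of the rows was 0.46 in IPF-LC and -0.38 in LC, against -0.02 and 0.01 over all genes. Because the genes were chosen on these contrasts, nothing is read from the counts. With the identical pair summed, the genes behind them were Entpd1 and Ada in IPF-LC and Entpd1 and P2rx4 in LC. Entpd1 is 1 of 265 genes, 2.17% of those measured, past 2-fold upward after depletion in IPF-LC and downward in LC, and the Entpd4b row is another.

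Between models, 1 row (Dpp4) was at least 2-fold higher in IPF-LC than in LC with isotype antibody and 3 (Entpd1, Entpd4b and Cd38) were at least 2-fold lower, where 5.32% and 11.7% of all genes were. P2rx7 lay just short of the lower threshold at -0.90 (-1.41 to -0.41) and passed it with TPM (-1.17) and when scaled to the CD8 T cell identity genes (-1.15). After depletion 2 rows (Ada and Entpd4b) were at least 2-fold higher in IPF-LC and 0 lower, where 9.59% and 7.61% of all genes were. Entpd1 and P2rx4 lay just under the threshold there, each at a log2 ratio of 0.99. Scaled to the CD8 T cell identity genes, each was at 1.08, which brought the number of rows to 4. With TPM Entpd1 was at 0.48 and P2rx4 at 0.89.

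The nearest patterns over the 4 libraries were searched among 8433 genes averaging 10 CPM or more, by the Euclidean distance of centred log2 levels. Each distance rests on 4 values, and nothing is said of shared function. The nearest to Entpd1 were Plat, Fam129b and Plscr1, at distances of 0.67 to 0.70; Plat encodes tissue plasminogen activator, and stood at 15.5 and 6.21 CPM in the CD4-depleted and isotype IPF-LC libraries and at 7.02 and 22.9 CPM in those of LC. Among those nearest to Nt5e were Prkrip1 and Dffb, each at 0.04, and among those nearest to Adora2a were Exosc4 at 0.02 and Spag9 at 0.04. For P2rx7 they were Fbh1, Ctnna1 and Hsd17b7 and for Dpp4 Tbcel, Poli and Fam118a, at 0.04 to 0.11 across both. Cd38 was nearest to Gm42047, Rit1 and Cnksr3, at 0.14 to 0.19. The row of Entpd4b, whose values follow the division of reads, was nearest to Ccr8, Rgs16 and Il12rb2, at 1.38 to 1.44.

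Other genes of the pathway were read from 11 lists. Over all 12231 genes, 8.84% were at least 2-fold higher and 13.6% lower after depletion in IPF-LC. In LC the shares were 5.85% and 15.4%. The lists are short, and every list count from here on is to be read beside these shares. Among the enzymes that degrade nucleotides outside the cell, 4 of the 9 found in the tables reached a mean of 1 CPM, and 2 exceeded 2-fold upward after depletion in IPF-LC, Entpd1 and Enpp1 (list median 1.12). In LC 1 exceeded it downward, Entpd1 (list median -0.34). Enpp1, which cleaves ATP and cyclic GMP-AMP at the cell surface, was measured at 43.8 and 14.2 CPM in the CD4-depleted and isotype IPF-LC libraries and 19.9 and 31.3 CPM in those of LC, ratios of 1.62 (1.40 to 1.85) and -0.65 (-0.86 to -0.45). Its pattern thus had the signs of Entpd1 in each model. Acpp, an acid phosphatase that also makes adenosine from AMP, had ratios of 0.68 and -0.02. Of the intracellular ENTPD genes, Entpd5, Entpd6 and Entpd7 had ratios between -0.40 and 0.40 in either model.

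Among 13 measured genes of adenosine uptake and breakdown, 1 exceeded 2-fold upward and 1 downward after depletion in IPF-LC (median -0.10), and likewise in LC (median -0.17). Those in IPF-LC were Ada and Ampd1, an AMP deaminase, which stood at 0.642 CPM after depletion against 6.91 CPM with isotype antibody (-3.37, -4.53 to -2.49). In LC they were Adal, an ADA-like deaminase, at 1.34, and Ampd3 at -1.28. Slc29a2, a nucleoside transporter, had ratios of -0.67 in IPF-LC and -0.997 in LC. None of 5 cytosolic and mitochondrial nucleotidases was 2-fold apart in either model: the ratios of Nt5c, Nt5c2, Nt5c3 and Nt5m ran from -0.44 to 0.53.

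P2Y receptors, which respond to nucleotides through G proteins, included several with 0 counts in a library. Of 7 measured, 4 exceeded 2-fold upward and 1 downward in IPF-LC after depletion (median 1.09), and 0 upward and 4 downward in LC (median -3.18). P2ry6 and P2ry13 reached the mean of 1 CPM only through the isotype LC library, at 5.63 and 4.01 CPM, which favours a downward call in LC. P2ry1 reached it only through the CD4-depleted IPF-LC library, at 3.02 CPM, which favours an upward call in IPF-LC. Both list medians depended on counting genes with few reads, although the LC median is itself the ratio of P2ry10b. Over the 3 genes that averaged 10 CPM or more, P2ry10, P2ry10b and P2ry14, the medians were -0.82 in IPF-LC, the opposite sign, and -0.69 in LC. P2ry10b, downward in IPF-LC, had ratios of -1.19 and -3.18, and it is a close relative of P2ry10 with which reads may be shared. P2ry2, P2ry6 and P2ry13, receptors of myeloid and epithelial cells, had 0 counts in the CD4-depleted LC library against 91, 87 and 62 with isotype antibody, at least 30.8-fold, 29.4-fold and 21.0-fold lower. In IPF-LC they had 49, 24 and 11 counts after depletion and 12, 11 and 0 with isotype antibody. The macrophage sum was lower after depletion in each model. The part of myeloid and epithelial cells in these counts was not tested. P2ry1 had 47 counts after depletion and 3 with isotype antibody in IPF-LC (3.77, 2.34 to 6.30). P2ry10, a lysophosphatidylserine receptor of lymphocytes and by far the most abundant of the list, was measured at 685 CPM after depletion and 618 CPM with isotype antibody in IPF-LC, and 481 and 433 CPM in LC, with a ratio of 0.15 in each model.

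Of 6 measured ATP release genes, Lrrc8d, a subunit of volume-regulated anion channels, exceeded 2-fold upward in IPF-LC (1.18, against 0.22 in LC). Gja1, a connexin of stromal and endothelial cells, had 0 counts in each depleted library against 106 and 111 counts with isotype antibody in IPF-LC and LC. Panx1, the pannexin channel through which T cells release ATP, had ratios of 0.53 and 0.50, close to those of Nt5e. The vesicular nucleotide transporter gene Slc17a9 had ratios of -0.66 and 0.12.

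Of 14 measured genes of NAD use and ADP-ribosylation, 3 exceeded 2-fold upward and 6 downward in IPF-LC after depletion (median -0.11), and 1 upward and 4 downward in LC (median -0.65). Art2b encodes the enzyme that, in mouse T cells, ADP-ribosylates and so opens P2X7. It was measured at 10.5 CPM in the CD4-depleted and 60.02 CPM in the isotype library of IPF-LC, and at 22.6 CPM in the CD4-depleted and 33.6 CPM in the isotype LC library, ratios of -2.51 (-2.76 to -2.27) and -0.57 (-0.77 to -0.37). Its close relative Art2a had no more than 9 counts in any library, and reads may be shared between them. Bst1, a relative of Cd38 expressed by myeloid and stromal cells, had ratios of -2.44 and -3.40. The macrophage, endothelial and fibroblast sums were all lower after depletion in each model, and the part of these cells was not tested. Art3 and Trpm2 had 0 counts in the CD4-depleted IPF-LC library against 39 and 24 with isotype antibody. In the CD4-depleted LC library Trpm2 also had 0 counts, against 63 with isotype antibody, while Art3 had 10 counts after depletion.

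Among 5 measured peptidases of the DPP4 list none was 2-fold apart in either model, and Dpp3, Dpp7, Dpp8 and Dpp9 had ratios between -0.71 and 0.54. Among 16 measured genes of cAMP signalling, the route of the adenosine receptor, 0 exceeded 2-fold upward and 2 downward in IPF-LC after depletion (median 0.29), and 2 upward and 2 downward in LC (median 0.17). Prkaca, a catalytic subunit of protein kinase A, was measured at 43.8 CPM after depletion against 22.9 CPM with isotype antibody in IPF-LC (0.93), and at 35.9 against 7.64 CPM in LC (2.23). Creb1, the transcription factor downstream, had ratios of -1.20 and 0.10, and the adenylate cyclase gene Adcy6 0.37 and -1.85 at no more than 49 counts. Prkar2b, a regulatory subunit of the kinase, had ratios of 0.43 and -1.11.

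**Figure D5:**
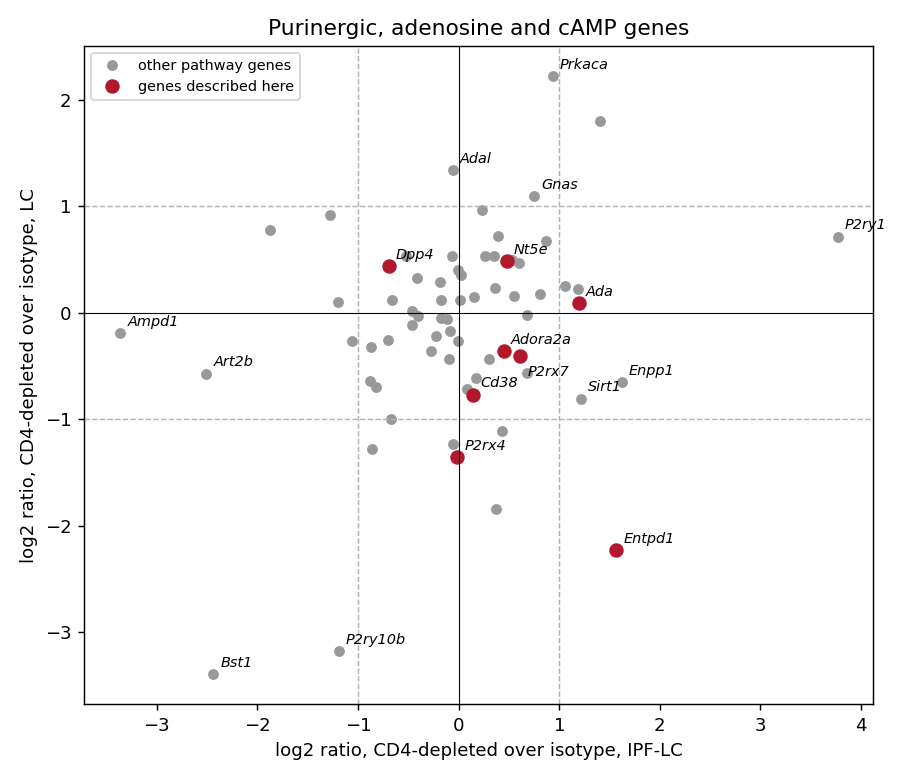
Log2 ratio of CD4-depleted over isotype library in IPF-LC (horizontal axis) and LC (vertical axis) for 69 pathway genes with reads in every library, averaging 1 CPM or more, with Entpd4 and Entpd4b left out. Red points are 8 of the genes described above, and dashed lines mark 2-fold in either model. Entpd1, at 1.57 and -2.23, lies at the lower right.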

How the data were processed

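Members and gene lists were chosen with earlier results of these data known. RSEM 1.3.3, STAR 2.7.11a, MultiQC 1.25.2 and fastp 0.23.4 were used upstream in roles not stated, on build GRCm39 (mm39), per the submitters' processing notes; the annotation release and strand setting are not given in the sources used here. The authors deposited expected counts per gene, without normalisation, of which 5.49% to 5.89% were not whole. The deposited TPM values are scaled to a constant sum per library. Per the file headers each table also gives mean gene lengths. RNA was reverse-transcribed with a SMART-Seq v4 kit, per the labels.

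Counts were rounded and scaled with TMM factors (edgeR 4.0.16). Ratios used a prior count of 0.5 and exact conditional binomial 95% intervals. Both were run on simulated Poisson counts with known folds. Such counts carry counting error only, so the run cannot show how the intervals cover spread between animals or from amplification. No p-value is given, since each group had 1 library and the members were chosen on these values. Called means at least 2-fold; genes needed a mean of at least 1 CPM. Where rows shared a symbol, the highest stood for it. Where 1 library had 0 counts, the fold is a bound over 3 counts per library. Genes named are the members, up to 4 further genes per pathway list with the largest depletion ratio, and the 3 nearest patterns of 7 members, some of which are not reported here; P2ry10, P2ry10b, P2ry14, Art2a, Adora1, Adora3 and the further P2X genes were added after their values were seen. Genes that overlap a member in the annotation had at most 55 counts in any library. Alternatives were DESeq2 1.42.0 size factors, total counts, TPM, scaling to CD8 T cell identity genes, a prior count of 2, other filters and the summed pair.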

Additional observations from a re-analysis of the deposited data

Results flagged for a closer look

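Entpd1, Adora2a, Dpp4 and the rows of Entpd4b and Entpd4 had depletion ratios of opposite sign in IPF-LC and LC, both counting intervals off 0. The share of all genes that meet this rule was not counted, and the members were chosen on these contrasts. Nothing is therefore read from how many rows met it. None of the differences was tested, since each group had 1 library. The difference, IPF-LC minus LC, was 3.79 on the log2 scale for Entpd1. For Adora2a it was 0.81, or 1.16 when scaled to the CD8 T cell identity genes, although each ratio was under 2-fold. For Dpp4 it was -1.14, the direction opposite to that of Entpd1. It was -0.79 when scaled to the CD8 T cell identity genes and -0.82 with TPM. For the rows of Entpd4b and Entpd4 it was 6.79 and -1.34, and for their summed reads 0.48 (0.32 to 0.65).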

How the results depend on the processing

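Every ratio rests on 1 library per group, so the spread between animals is unknown and depth limits the low genes, P2rx7 most. Dpp4, at a log2 ratio of 1.02, was the 1 of the 10 rows at least 2-fold higher in IPF-LC than in LC with isotype antibody; the number was 0 with DESeq2 size factors, total counts, TPM, scaling to the CD8 T cell identity genes, or when the whole interval had to pass 2-fold. After depletion it was 2, but 4 when scaled to those genes and 1 with Entpd4 and Entpd4b summed. Requiring 10 CPM, or no minimum, in place of 1 CPM moved the share of all genes past 2-fold. After depletion in IPF-LC it was 4.08% or 18.1% upward, in place of 8.84%, and 6.02% or 21.1% downward, in place of 13.6%. In LC it was 2.59% or 12.9% upward, in place of 5.85%, and 5.85% or 26.8% downward, in place of 15.4%. For IPF-LC over LC with isotype antibody it was 1.91% or 13.2% upward and 4.10% or 23.1% downward, and after depletion 3.30% or 19.05% upward and 2.57% or 15.2% downward. Scaling to the CD8 T cell identity genes put the median depletion ratio of all genes at 0.12 in IPF-LC and -0.20 in LC, and ratios near 0 then changed sign: P2rx4 in IPF-LC was 0.13, and in LC Ada was -0.11 and the summed pair -0.13. The number of the 10 rows lower in IPF-LC than in LC with isotype antibody, 3, was 4 with TPM or CD8 scaling and 2 with the whole interval or the pair summed. For single genes and the summed pair, 48 values moved beyond the counting interval and 205 did not, and 0 called values reversed. Of the list medians, 1 past 2-fold reversed: that of the P2Y receptors in IPF-LC was -0.82 at a minimum of 10 CPM, in place of 1.09, and in LC it was -0.69 in place of -3.18. Other list medians that changed sign under an alternative lay between -0.17 and 0.30 as reported. No replicate could be left out. No paired analysis was possible because each group had 1 library.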
